A study of Mus musculus with 2 samples.

Results

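The LIN28, IGF2BP and Musashi genes encode 3 small families of RNA-binding proteins that act in embryonic and stem cells. Their transcripts were followed here in RNA recovered with FLAG-tagged Nanos2 from the fetal mouse testis. All non-control probes that the series' gene table assigns to Lin28a, Lin28b, Igf2bp1, Igf2bp2, Igf2bp3, Msi1 or Msi2 were taken, with Lin28 read as the older symbol of Lin28a. This gave 7 of the 20162 named genes on the array and 18 of its 41174 non-control probes. Lin28a and Igf2bp2 had 1 probe each, Msi1 had 2, Lin28b, Igf2bp1 and Igf2bp3 had 3 each, and Msi2 had 5.

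LIN28A and LIN28B bind precursors of the let-7 microRNAs and keep them from being processed, and LIN28A is a marker of primordial germ cells and undifferentiated spermatogonia in the mouse. IGF2BP1, IGF2BP2 and IGF2BP3 are cytoplasmic proteins with paired RNA recognition motifs and KH domains that protect, localise and regulate mRNAs, first known from those of Igf2 and Actb, and they are made mostly before birth. MSI1 and MSI2 bind short motifs in the 3′ untranslated regions of mRNAs and repress or activate their translation, and both are made in the mouse testis.

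Both groups were embryonic day 14.5 gonads of male MCH mice carrying Tg-Nanos2 enhancer-3xFLAG-Nanos2-3'UTR, a transgene that by its label places FLAG-tagged Nanos2 under a Nanos2 enhancer. The first group was RNA recovered with the antibody Anti-FLAG M2-Agarose (FLAG IP), and the second was RNA with no antibody step (input). Each group had 2 one-colour arrays (n = 2 per group), which the series text calls biological duplicates, and the sources used here do not say whether animals were pooled. No precipitate from gonads without the transgene was analysed here, so RNA that binds the beads without Nanos2 was not measured.

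FLAG IP replicate 1 was much dimmer than the rest. Its processed signal had a 75th percentile of 55.7 intensity units, and the second FLAG IP array had one of 608, against 1026 and 1038 on the input arrays. The part of this gap in the results was not tested. Levels are therefore given as multiples of the 75th percentile of the same array, and changes as the log2 fold change of FLAG IP over input with the moderated SE of limma. The transcript of the precipitated protein, Nanos2, stood at 1.48 and 1.22 times the 75th percentile in the FLAG IP, against 0.398 and 0.337 in the input, a log2 fold change of 1.88 ± 0.20 (SE; limma adjusted p = 0.00477 in the fit of genes). Whether that probe also reads the transgene's RNA was not tested. The tissue label was checked against markers. All 9 germ cell markers, all 6 Sertoli cell markers and all 5 Leydig cell markers examined were well above background on both input arrays. In the FLAG IP, 4 of the 9 germ cell markers were higher and 1 was lower, and all 16 tested markers of Sertoli cells, Leydig cells and interstitial mesenchyme were lower, against 28.0% higher and 25.4% lower over all genes tested. With slide as a block 1 germ cell marker was called, and without input replicate 1 or 2 it was 0 in limma (2 and 4 higher at an unadjusted p under 0.05). Without input replicate 1 the lower calls of the other 3 cell types were also 0 (5 Sertoli, 5 Leydig and 4 mesenchyme markers at an unadjusted p under 0.05). Summed over its markers, the germ cell level was 163 and 186 times the 75th percentile in the FLAG IP and 89.6 and 95.2 in the input. For Sertoli cells the sums were 7.86 and 6.53 in the FLAG IP and 43.4 and 42.3 in the input. Of 4 endothelial markers, 2 were lower and 2 were not called, and all 4 tested blood markers were lower. The part that the mix of cell types plays in the changes of the RNA-binding protein genes was not tested. A lower level in the FLAG IP is less RNA recovered relative to the array's other RNA, and is no count of cells.

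Lin28b gave the largest change among the tested probes, Igf2bp1 and Msi2 each had 1 probe that rose, and Igf2bp3 had 1 probe that fell. Of the 18 probes, 16 were tested, those well above background on both FLAG IP arrays or on both input arrays. Of these 16, 4 were called at an adjusted p below 0.05 in limma (25%), against 45.7% of all 26538 probes tested. The 3 that rose made up 18.8% and the 1 that fell 6.25%, against 23.3% and 22.4% of all tested probes. No share was above the background. The median log2 fold change of the 16 probes was 0.38, against 0.02 over all tested probes. In 8 of the 16 probes both FLAG IP arrays lay above both input arrays, in 3 they lay below, and in 5 the groups overlapped. Groups that did not overlap made up 68.8% of the 16 probes and 76.8% of all tested probes.

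**Figure D1:**
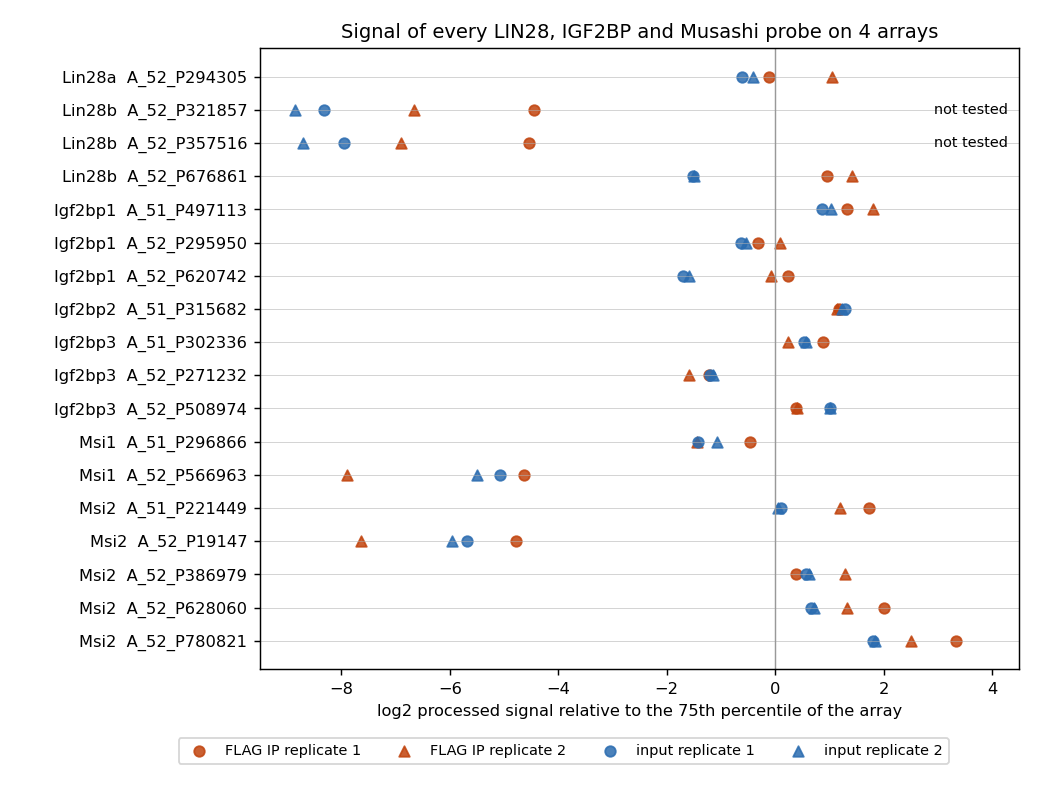
Level of each of the 18 probes on the 4 arrays. The x axis is the log2 processed signal relative to the 75th percentile of the array, each row is a probe, FLAG IP arrays are orange and input arrays blue, circles are replicate 1 and triangles replicate 2. The 2 FLAG IP arrays lie clearly to the right of the 2 input arrays for Lin28b probe A_52_P676861, and 2 other Lin28b probes marked as not tested lie at the far left.

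The replicates were closer in the input than in the FLAG IP. Among the 16 tested probes, replicates lay a median of 0.59 apart in the FLAG IP and 0.06 apart in the input, in log2 units, and FLAG IP replicate 1 was the higher of the pair in 10 of the 16.

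Lin28b, the paralogue of Lin28a whose protein also blocks let-7 maturation, rose. Its probe A_52_P676861 read 1.94 and 2.66 times the 75th percentile in the FLAG IP, against 0.351 and 0.355 in the input. Both FLAG IP values were far above both input values, and the groups did not overlap. The log2 fold change was 2.69 ± 0.23 (SE; 6.45-fold; limma adjusted p = 0.00687), higher than that of 98.2% of all tested probes. In the fit of genes, in which 53.4% of all genes were called, Lin28b was called as well. There, where it was represented by the same probe, the adjusted p was 0.00383. The call of the probe was lost in 6 of 14 alternatives, among them without either input array and with slide as a block (limma adjusted p = 0.0995). The log2 fold change stayed between 1.63 and 2.91. For other scalings and normexp it is relative to the shift of all probes. With no scaling and that shift left in, it was 0.20.

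The other two Lin28b probes gave no usable level. Probe A_52_P321857 read 0.0460 and 0.00989 times the 75th percentile in the FLAG IP, against 0.00312 and 0.00215 in the input. Probe A_52_P357516 read 0.0432 and 0.00834 in the FLAG IP, against 0.00406 and 0.00239 in the input. All 4 arrays left both probes short of that background limit, so no fold is given and both stayed out of the test.

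Lin28a, the germ cell marker of the family, was not called. Its single probe A_52_P294305 read 0.919 and 2.06 times the 75th percentile in the FLAG IP, against 0.655 and 0.755 in the input. Both FLAG IP arrays lay above both input arrays, but the FLAG IP replicates differed more from each other than replicate 1 did from the input. The log2 fold change was 0.97 ± 0.45 (SE; limma adjusted p = 0.161). Leaving out single arrays moved it between 0.39, without FLAG IP replicate 2, and 1.55, without FLAG IP replicate 1. A fit with 1 FLAG IP array left takes the probe's own spread from the input alone, so its call is not given for Lin28a. In the fit of genes Lin28a was called, narrowly, with the replicate block (limma adjusted p = 0.0486).

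The 2 LIN28 genes were compared in the size of the change. The difference between the log2 fold changes of Lin28b and Lin28a was 1.72, from within-array differences of 1.08 and 0.37 in the FLAG IP and -0.90 and -1.09 in the input. All 5 pairs of paralogues were compared in this way with a two-sided exact permutation test over the 4 arrays, which cannot go below 0.333 with 2 arrays against 2. The Lin28 pair stood at that limit (exact permutation p = 0.333, and 0.333 after Benjamini-Hochberg adjustment over the 5 pairs), and so did the other 4 pairs. With 2 arrays against 2 the test cannot decide whether any pair differs.

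Igf2bp1, whose protein is known for binding the Actb and Myc mRNAs, had higher values in the FLAG IP at all 3 probes, of which 1 passed the test. Probe A_52_P620742 read 1.18 and 0.949 times the 75th percentile in the FLAG IP, against 0.310 and 0.333 in the input, a log2 fold change of 1.72 ± 0.20 (SE; 3.29-fold; limma adjusted p = 0.00844). Probe A_51_P497113 read 2.52 and 3.49 in the FLAG IP, against 1.82 and 2.04 in the input, and its log2 fold change of 0.62 ± 0.24 did not pass (adjusted p = 0.11). Probe A_52_P295950 read 0.80 and 1.06 in the FLAG IP, against 0.645 and 0.685 in the input, with a log2 fold change of 0.47 ± 0.22 (adjusted p = 0.159). The groups did not overlap at any of the 3 probes, and over all tested probes they did not overlap in 76.8%. After normexp background correction, relative to the shift of all probes, A_51_P497113 stood at -0.095 and A_52_P295950 at -0.13.

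The Igf2bp1 probes did not give the same size of change. The log2 fold change of A_52_P620742 was 1.10 above that of A_51_P497113 and 1.25 above that of A_52_P295950, whereas A_51_P497113 and A_52_P295950 differed by 0.15. The gene was represented by its brightest probe, A_51_P497113, and was not called (limma adjusted p = 0.0896), and with the mean of its probes it was called at a log2 fold change of 0.94 (adjusted p = 0.0146). The call of A_52_P620742 was lost with slide as a block (adjusted p = 0.125), after normexp background correction (adjusted p = 0.0679), with no filter on dim probes (adjusted p = 0.0527), with no scaling (adjusted p = 0.709) and without either input array (adjusted p = 0.188 without replicate 1 and 0.135 without replicate 2).

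Igf2bp2, the member of the family that persists in adult tissues, was close to its input level. Its single probe A_51_P315682 read 2.26 and 2.19 times the 75th percentile in the FLAG IP, against 2.44 and 2.34 in the input. The FLAG IP values lay just below both input values, by about as much as replicates differed. The log2 fold change was -0.10 ± 0.16 (SE; limma adjusted p = 0.643), and the gene was called in none of the 15 alternatives.

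Igf2bp3, the oncofetal member first described in carcinoma, had 1 of 3 probes lower. Probe A_52_P508974 read 1.30 and 1.32 times the 75th percentile in the FLAG IP, against 2.0 and 2.01 in the input. The replicates were tight in both groups, and the log2 fold change of -0.61 ± 0.16 (SE; limma adjusted p = 0.0453) passed narrowly. Probe A_52_P271232 read 0.432 and 0.332 in the FLAG IP, against 0.437 and 0.455 in the input, a log2 fold change of -0.24 ± 0.21 (adjusted p = 0.417). Probe A_51_P302336 read 1.84 and 1.17 in the FLAG IP, against 1.45 and 1.48 in the input, so that the groups overlapped, and its log2 fold change was 0.00 ± 0.28 (adjusted p = 0.996). The call of A_52_P508974 was lost in 7 of 14 alternatives, including the replicate block (limma adjusted p = 0.148) and without either input array. Its log2 fold change stayed between -1.54 and -0.48. For other scalings and normexp it is relative to the shift of all probes. With no scaling and that shift left in, it was -3.10. In the fit of genes Igf2bp3, represented by this probe, was called (adjusted p = 0.0338), and with the mean of its probes the log2 fold change was -0.28 and the call was lost (adjusted p = 0.273).

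Within the IGF2BP family the log2 fold change of Igf2bp1 was 0.72 above that of Igf2bp2 and 1.23 above that of Igf2bp3. Igf2bp2 was 0.51 above Igf2bp3, each from the brightest probe of a gene. The other Igf2bp3 probes, at -0.24 and 0.00, lay on either side of Igf2bp2 at -0.10, so this gap depends on the probe. The within-array differences of Igf2bp2 and Igf2bp3 were 0.80 and 0.73 in the FLAG IP and 0.28 and 0.22 in the input. The 3 comparisons each had an exact permutation p of 0.333, the limit of the design, which decides nothing about them.

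**Figure D2:**
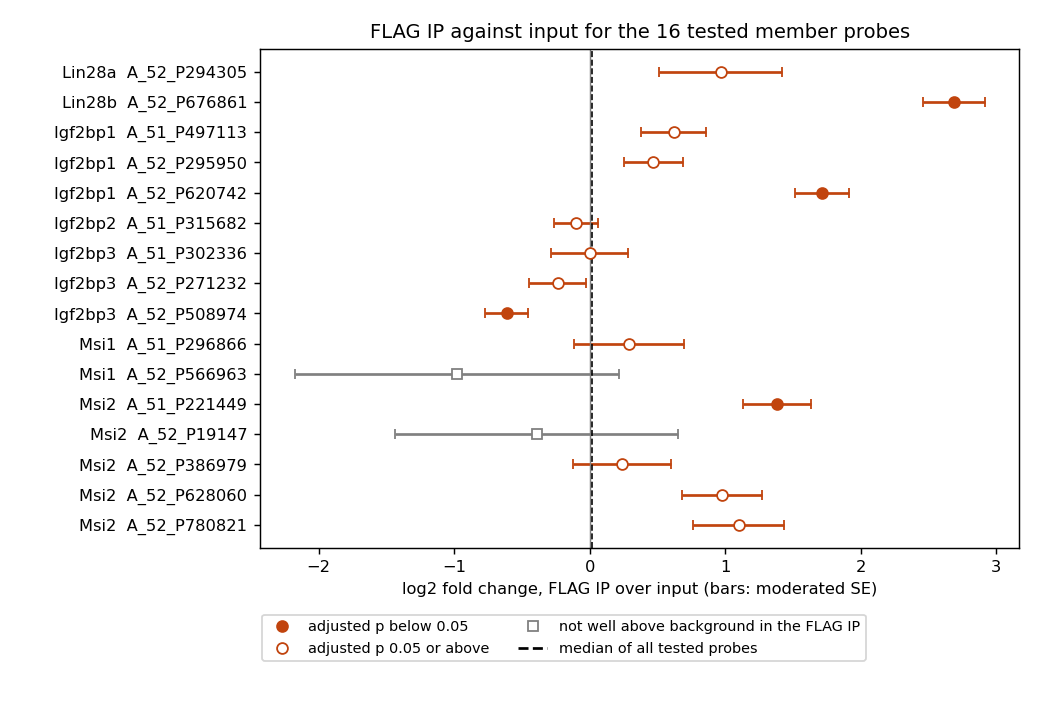
Log2 fold change of FLAG IP over input for the 16 tested probes, with the moderated SE from limma as bars. Filled points passed an adjusted p of 0.05, grey squares were not well above background on either FLAG IP array and mark no measured fold, and the dashed line is the median of all tested probes at 0.02. Lin28b stands at 2.69, and the only filled point left of 0 is Igf2bp3 probe A_52_P508974 at -0.61.

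Msi2, the Musashi gene with the broader expression of the pair, had higher values in the FLAG IP at 3 of its 4 bright probes, of which 1 passed the test. Probe A_51_P221449 read 3.32 and 2.30 times the 75th percentile in the FLAG IP, against 1.08 and 1.04 in the input, and rose by 1.38 ± 0.25 on the log2 scale (SE; 2.60-fold; limma adjusted p = 0.0191). Probe A_52_P780821 read 10.1 and 5.68 in the FLAG IP, against 3.49 and 3.57 in the input, with a log2 fold change of 1.10 ± 0.34 (adjusted p = 0.0653). Probe A_52_P628060 read 4.02 and 2.51 in the FLAG IP, against 1.58 and 1.64 in the input, with a log2 fold change of 0.98 ± 0.29 (adjusted p = 0.0623). At these 3 probes FLAG IP replicate 1 was the higher of the FLAG IP arrays, and neither overlapped the input. Over all tested probes the groups did not overlap in 76.8%.

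The remaining pair of Msi2 probes behaved differently. Probe A_52_P386979 read 1.31 and 2.45 times the 75th percentile in the FLAG IP, against 1.48 and 1.55 in the input, so that FLAG IP replicate 1 lay below and replicate 2 above both input arrays (log2 fold change 0.24 ± 0.36; limma adjusted p = 0.621). Probe A_52_P19147 read 0.0363 and 0.00501 in the FLAG IP, where both arrays left it too dim to count, against 0.0194 and 0.0161 in the input. The lowest log2 signal that counted as well above background was -3.35 on FLAG IP replicate 1 and -6.34 on replicate 2. The mean input level of the probe, -5.82, lay below the first limit and above the second. No fold or bound for the group is given, because the mean of both limits, -4.84, exceeded that input level. The gene, represented by A_52_P780821, missed the threshold narrowly (adjusted p = 0.0512), and it was called in 5 of 15 alternatives, for example with the replicate block (adjusted p = 0.0283). The call of A_51_P221449 was lost in 6 of 14 alternatives, with an adjusted p of 0.171 with slide as a block, 0.233 without input replicate 1 and 0.199 without input replicate 2.

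Msi1, known for its role in neural progenitors, showed no change that passed the test. Probe A_51_P296866 read 0.721 and 0.366 times the 75th percentile in the FLAG IP, against 0.374 and 0.474 in the input. FLAG IP replicate 2 was the lowest of the 4 arrays and replicate 1 the highest, and the log2 fold change was 0.29 ± 0.40 (SE; limma adjusted p = 0.599). Without FLAG IP replicate 1 it was -0.20 and without FLAG IP replicate 2 it was 0.78. Probe A_52_P566963 read 0.0405 and 0.00418 in the FLAG IP, again not well above background there, against 0.0296 and 0.0222 in the input. As for Msi2 probe A_52_P19147, no fold or bound for the group is given. The mean of both FLAG IP limits, -4.84, exceeded its mean input level of -5.29, although the limit of replicate 2 alone did not. The difference between the log2 fold changes of Msi2 and Msi1 was 0.81, with within-array differences of 3.80 and 3.96 in the FLAG IP and 3.22 and 2.91 in the input (exact permutation p = 0.333).

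The authors' deposited table gives its own ratio of FLAG IP to input for the same probes. For Lin28b probe A_52_P676861 that ratio was 5.94, for Igf2bp1 probe A_52_P620742 it was 3.03, for Msi2 probe A_51_P221449 it was 2.40 and for Igf2bp3 probe A_52_P508974 it was 0.603 in the authors' deposited table. Over the 16 tested probes, the ratio in the authors' deposited table was 0.911 to 0.921 of the fold computed here, a nearly constant factor. What scaling gave that factor is not stated in the sources used here.

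The genes closest to each member over the 4 arrays were found by the Euclidean distance between their log2 levels, which takes in the level as well as the change. Lin28b was closest to Hhex, a homeobox gene (distance 0.28, log2 fold change 2.44), and Dio3, whose product inactivates thyroid hormone (0.28, 2.90). Lin28a was closest to Jade3 (0.21, 1.05) and Zbtb14 (0.26, 0.87). Igf2bp1 lay close to Dbndd1 (0.21, 0.48). Igf2bp2 was closest to Pfkfb4 (0.10, -0.15) and Dusp7 (0.11, -0.13), and Igf2bp3 to Atat1 (0.11, -0.66) and Scfd2 (0.16, -0.48). Msi1 was closest to Pidd1 (0.31, 0.33) and Ccdc57 (0.33, 0.33), and Msi2 to Mnt (0.20, 1.04) and Ubr3 (0.25, 0.93). Each distance rests on 4 arrays.

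The pathway around LIN28 was followed at the level of genes, where 28.0% of the 15273 genes tested rose and 25.4% fell, with a median log2 fold change of 0.07. The let-7 microRNAs themselves are not measured by these arrays. Their mature sequences, from RefSeq on GRCm38.p6, are shown because LIN28 proteins act on their precursors. The seed, bases 2 to 8, through which a microRNA pairs with its targets, is in capitals.
mmu-let-7a-5p (chr13:48538239-48538260, minus strand): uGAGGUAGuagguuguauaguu
mmu-let-7d-5p (chr13:48536078-48536099, minus strand): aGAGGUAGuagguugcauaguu
mmu-let-7g-5p (chr9:106178846-106178867, plus strand): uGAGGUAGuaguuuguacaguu
mmu-miR-98-5p (chrX:151913229-151913250, plus strand): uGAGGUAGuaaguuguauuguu
The 4 differ outside the seed and are alike within it, and 13 of the 1738 mature sequences in that table have this seed. The letters GGAG, which the zinc knuckles of LIN28 recognise, were searched on the RNA strand of the hairpins and stood in 9 of 12 let-7 family hairpins, against 44.5% of 1005 hairpins of varying length.

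Genes that process let-7 or work with LIN28 were lower or did not pass. Of 14 tested genes, 0 rose and 6 fell in limma (1 and 6 at an unadjusted p under 0.05), with a median log2 fold change of -0.52. Over all genes 28.0% rose and 25.4% fell. With the mean of a gene's probes, 4 of the list were lower and the median was -0.29. After quantile normalization 1 was higher and 4 were lower. Khsrp, whose protein binds let-7 precursors and favours their processing, fell to 4.12 and 2.54 times the 75th percentile in the FLAG IP, against 15.0 and 17.5 in the input (log2 fold change -2.32 ± 0.30; limma adjusted p = 0.00664). Hnrnpa1, whose protein binds the primary let-7a transcript in human cells, also fell (log2 fold change -1.30 ± 0.16), as did Prkra, a Dicer partner gene (-0.94 ± 0.21), and Dicer1 (-0.61 ± 0.17). The terminal uridylyltransferase gene Tut7, whose product tails let-7 precursors held by LIN28, stood at 0.21 ± 0.28, and Dis3l2, the nuclease gene for the tailed precursors, at 0.00 ± 0.17. Tut4 was not well above background on either FLAG IP array. With slide as a block and without input replicate 2, 1 of the 14 was lower, and without input replicate 1 it was 0, with 3 lower at an unadjusted p under 0.05 in each of these fits.

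Of 19 tested transcripts known as let-7 targets, 4 rose and 6 fell, close to the 28.0% and 25.4% over all genes. The median log2 fold change was 0.12, against -0.25 with normexp (relative to the shift of all genes) and -0.23 when FLAG IP replicate 1 was left out. Prdm1, a transcription factor gene of germ cell specification that let-7 represses in the mouse, rose to 2.06 and 3.25 times the 75th percentile in the FLAG IP, against 0.257 and 0.298 in the input (log2 fold change 3.23 ± 0.29; limma adjusted p = 0.00398). Arid3b rose by 2.48 ± 0.54, with 42.7 and 15.7 times the 75th percentile in the FLAG IP and 4.24 and 5.08 in the input. Ccnd2, a G1 cyclin gene, fell (log2 fold change -2.72 ± 0.21), and so did Myc (-1.81 ± 0.19). Without input replicate 2 the calls were 2 higher and 2 lower, and without input replicate 1 they were 0 and 0 (unadjusted p under 0.05 for 3 and 4).

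**Figure D3:**
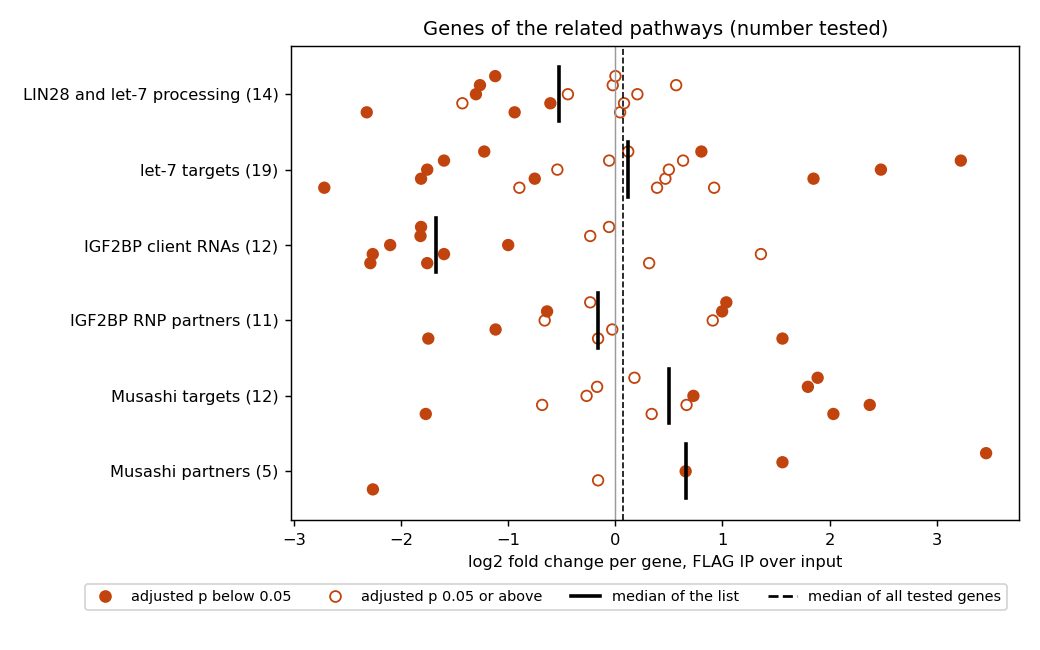
Log2 fold change of FLAG IP over input per gene for the 6 lists around the LIN28, IGF2BP and Musashi proteins, with the number of genes tested in parentheses. Filled points passed an adjusted p of 0.05 in limma, black bars are list medians and the dashed line is the median of all tested genes at 0.07. The filled points of the IGF2BP client RNAs all lie left of 0, and those of the let-7 targets lie on both sides.

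RNAs known to be bound by IGF2BP proteins were lower in most cases. Of 12 tested, 0 rose and 8 fell in limma (0 and 8 at an unadjusted p under 0.05), with a median of -1.68. Over all genes 28.0% rose and 25.4% fell. With the mean of a gene's probes, 6 of the list were lower and the median was -1.26. Igf2, the growth factor gene that gave the family its name, fell to 14.2 and 14.8 times the 75th percentile in the FLAG IP, against 50.2 and 52.2 in the input (log2 fold change -1.82 ± 0.16; limma adjusted p = 0.00394). Lamb2, a laminin gene, fell (log2 fold change -2.29 ± 0.20), as did the noncoding RNA H19 (-2.27 ± 0.33) and the chromatin protein gene Hmga2 (-1.60 ± 0.22). Cd44, a hyaluronan receptor gene, fell to 0.108 and 0.0835 times the 75th percentile in the FLAG IP, where 1 array was well above background, against 0.193 and 0.187 in the input (limma adjusted p = 0.0187). Mapt was also called lower with only 1 FLAG IP array well above background (log2 fold change -2.10 ± 0.44). Both genes entered the test through the input, where they are higher. With only probes well above background on all 4 arrays, 6 of 9 tested genes of this list were lower. Myc, Hmga2 and Cdk6 stand in this list and in that of the let-7 targets. Actb, the classic client of IGF2BP1, read 7.23 and 1.58 in the FLAG IP, against 1.37 and 1.27 in the input, and was not called (log2 fold change 1.36 ± 0.79; adjusted p = 0.214). All 5 mesenchyme markers fell beside this list, with summed levels of 32.6 and 23.2 times the 75th percentile in the FLAG IP and 163 and 158 in the input, and their part in its changes was not tested. The list had 3 genes lower after normexp background correction, 5 with slide as a block, 3 without input replicate 2, and 0 without input replicate 1 and with no scaling (7 and 8 at an unadjusted p under 0.05).

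Of 11 tested genes for proteins found with IGF2BPs in ribonucleoproteins, 3 rose and 3 fell, close to the 28.0% and 25.4% over all genes, with a median of -0.16. Syncrip rose by 1.56 ± 0.22 and Fmr1, the fragile X protein gene, by 1.04 ± 0.25, while Ybx1, the gene of a major mRNA packaging protein, fell (log2 fold change -1.75 ± 0.21), and so did Hnrnpu (-1.12 ± 0.20). With slide as a block and without either input array, 0 of the 11 were called in limma (1 higher and 1 lower at an unadjusted p under 0.05 in each fit). The median of this list moved with the processing. Relative to the shift of all genes it was 0.46 after quantile normalization and -1.15 after normexp background correction, and with the mean of a gene's probes it was -0.66.

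Of 12 tested transcripts named as Musashi targets, 5 rose and 1 fell, against 28.0% and 25.4% over all genes, with a median of 0.50. With the mean of a gene's probes, 3 were higher and 1 was lower, and the median was 0.10. Numb, the Notch inhibitor gene that was the first known target of MSI1 in the mouse, rose to 1.13 and 1.26 times the 75th percentile in the FLAG IP, against 0.283 and 0.30 in the input (log2 fold change 2.04 ± 0.17; limma adjusted p = 0.00383). Ikzf2, a transcription factor gene, rose by 2.38 ± 0.17 and Cdkn1a, a cell cycle inhibitor gene, by 1.80 ± 0.37, and Tgfbr1, a TGF-beta receptor gene, rose by 0.73 ± 0.19. Smad3, a TGF-beta signalling gene, fell (log2 fold change -1.77 ± 0.38). Of the 5 Musashi partner genes, 3 rose and 1 fell, with a median of 0.66. After normexp background correction and with slide as a block, 1 was higher and 1 lower. The median after normexp was -0.22, relative to the shift of all genes. Cpeb1, a translational regulator gene that acts with Musashi in Xenopus oocytes, rose by 3.46 ± 0.33, Syncrip by 1.56 ± 0.22 and Tent2, a cytoplasmic poly(A) polymerase gene, by 0.66 ± 0.17, while Ago2 fell (log2 fold change -2.26 ± 0.16) and the poly(A) binding protein gene Pabpc1 stood at -0.16 ± 0.27. The Musashi target calls were 2 higher and 1 lower after normexp background correction, 4 and 0 with slide as a block, 2 and 0 without input replicate 2, and 0 and 0 without input replicate 1 (unadjusted p under 0.05 for 4 and 1).

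**Figure D4:**
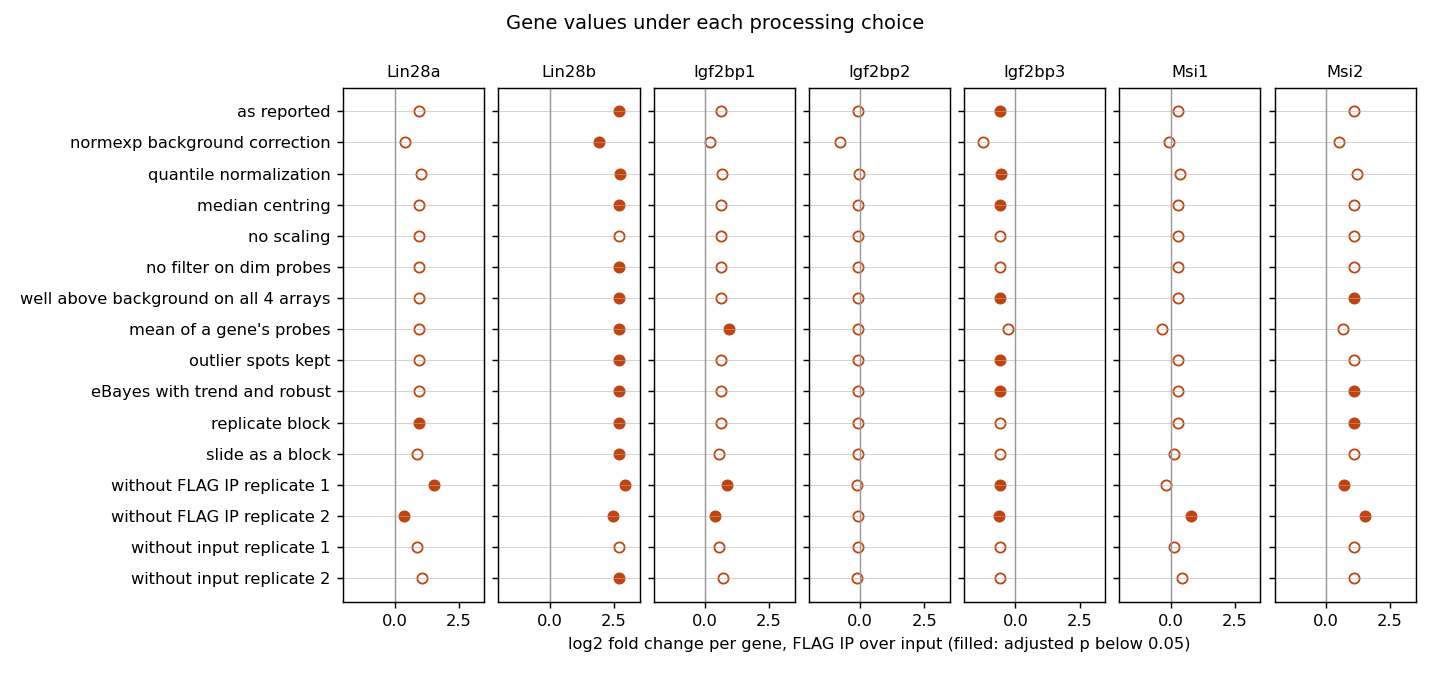
Log2 fold change of FLAG IP over input for the 7 genes (panels) under each processing choice (rows), with filled points at an adjusted p below 0.05. Values after normexp, quantile normalization, median centring and with no scaling are relative to the shift of the median of all genes. Lin28b stays between 1.90 and 2.91, and Msi1 is the only gene with points on both sides of 0.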

How the data were processed

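Male gonads with FLAG-tagged Nanos2 were measured on 4 one-colour Agilent arrays, 2 of FLAG IP RNA and 2 of input RNA. Labelling with Cy3 started from 0.20 µg of RNA, per the labels. Scanner files as deposited give a processed intensity per spot, linear and background-subtracted per the file headers. The submitters' processing notes name Feature Extraction 9.5. The authors' series table holds a ratio of FLAG IP to input and 1 raw signal per group, with no spread. Unused per-sample columns numbered 0.

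Log2 processed signals were scaled to the 75th percentile of non-control spots, spots marked as outliers were dropped, and spots of a probe were averaged. A probe counted as well above background on an array if any unmarked spot was, and entered if this held on both arrays of a group. The brightest probe stood for a gene. lmFit and eBayes of limma 3.58.1 in R 4.3.3 were run two-sided, without a block, and fitted to all 26538 probes and, separately, all 15273 genes, with Benjamini-Hochberg adjustment and a threshold of 0.05. Both fits had 2 residual degrees of freedom. With 4 arrays, their number limits the precision. The steps were tested on simulated data.

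Members and lists were chosen with earlier results of these data known. The named genes are all members, Nanos2, from each list the 2 highest and 2 lowest called genes and those whose role the text needs, and the 2 nearest genes of each member, of which 1 is not reported here. No genome sequence was read. Gene names, microRNA sequences and their coordinates come from RefSeq tables (GRCm38.p6). Same-numbered arrays are not said to share animals, and their deviations from the group means correlated at 0.05 across genes. Alternatives were other background corrections, scalings, filters, probe summaries, eBayes settings, blocks and single arrays left out.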

Additional observations from a re-analysis of the deposited data

How the results depend on the processing

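At the level of genes, 8162 were called as reported, 2661 after normexp background correction, 2923 with slide as a block and 0 with no scaling (0 higher and 4048 lower at an unadjusted p under 0.05). Leaving out single arrays gave 0 genes (without input replicate 1, where 2739 higher and 2538 lower had an unadjusted p under 0.05) to 12631. At the level of probes, 12125 were called as reported and 0 after normexp, with no scaling, with no filter on dim probes and with slide as a block (4748 and 3508, 0 and 7069, 7638 and 5892, and 3546 and 3913 higher and lower at an unadjusted p under 0.05), and 0 to 21284 with an array left out. Of the tested LIN28, IGF2BP and Musashi probes, 4 were called as reported and 0 under the same 4 settings (4, 1, 4 and 3 at an unadjusted p under 0.05), and 0 to 14 with an array left out. The lowest counts came without input replicate 1 or 2. The highest came without a FLAG IP replicate, where most of all probes tested were called as well. The slide of input replicate 1 held no other array used here, so the values without it are also those within the other slide. Where 1 array of a group was left, it was assumed to vary like the other group. The causes of these moves were not tested.

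The labels do not pair the arrays. With the replicate block, 8009 genes, 10126 probes and 3 of the probes of these families were called. The median log2 fold change of all probes, 0.02 as reported, moved to 0.60 after normexp, -0.13 after quantile normalization, -0.11 after median centring and -2.47 with no scaling. Probe values under these settings are relative to that move. Values of genes and list medians given as relative use the move of the median of all genes, for example from 0.07 to 0.38 after normexp. Of 327 values of the probes and genes under the alternatives, 242 kept their direction and their side of the threshold, 35 lost the call, 32 gained it and 18 changed direction. Taking out the shift returns the reported values under median centring and with no scaling. The filter, eBayes and replicate block settings do not alter a probe's log2 fold change. Direction could not change in those cases, so the tally is no measure of how stable the directions are. After normexp, the reversals were Igf2bp1 probes A_51_P497113 at -0.095 and A_52_P295950 at -0.13, Igf2bp3 probe A_51_P302336 at -0.91, Msi1 probes A_51_P296866 at -0.33 and A_52_P566963 at 0.90, Msi2 probes A_52_P19147 at 0.95 and A_52_P386979 at -0.53, and the gene Msi1 at -0.053. Igf2bp2 probe A_51_P315682 stood at 0.023 after quantile normalization, Igf2bp3 probe A_51_P302336 at -0.014 with slide as a block, and Msi1 at -0.35 with the mean of its probes. With single arrays left out, Igf2bp3 probe A_51_P302336 ranged from -0.33 to 0.33, Msi1 (probe A_51_P296866 and the gene) from -0.20 to 0.78, Msi1 probe A_52_P566963 from -2.62 to 0.66, Msi2 probe A_52_P19147 from -1.82 to 1.04 and Msi2 probe A_52_P386979 from -0.21 to 0.69.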
